A study of Mus musculus with 8 samples.

Results

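The nuclear genes of respiratory complex I were followed in ribosome-associated RNA of mouse midbrain dopaminergic neurons after treatment with the neurotoxin MPTP. All genes whose name in the deposited counts begins with Nduf were taken, which gave 45 of the 21761 genes in the table. The 7 named Ndufaf were treated as assembly factors and the other 38 as subunits. The libraries came from C57BL/6 mice given 5 daily intraperitoneal injections, either of MPTP-HCl at 30 mg/kg of free base (4 libraries) or of saline (4 libraries), with RNA taken 4 days after the last injection. RNA was obtained by TRAP (translating ribosome affinity purification), in which tagged ribosomes of a chosen cell type are pulled down with the RNA bound to them. The sources used here do not give the promoter that drives the ribosome tag, the sex and age of the mice, or the number of animals behind a library. The authors' name for the counts carries SN, which usually stands for substantia nigra, while the protocol also covers ventral tegmental neurons and does not say which applies here. The p-values therefore measure the spread between these libraries, which may be technical.

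Complex I is the largest enzyme of the respiratory chain. It takes electrons from NADH, passes them along iron-sulfur clusters to ubiquinone and pumps protons across the inner mitochondrial membrane. A hydrophilic arm reaches into the matrix and holds the NADH-oxidising N module and the quinone-reducing Q module, and a membrane arm carries the proton pumps, whose core proteins are encoded in mitochondrial DNA. Assembly factors join these modules and are not part of the finished enzyme. MPTP is of interest here because monoamine oxidase B converts it to MPP+, which enters dopaminergic neurons through the dopamine transporter and blocks complex I near the quinone site. The comparison asks whether ribosome-bound RNA of the poisoned enzyme differed after the toxin.

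Of the 45 genes, none was called different between MPTP and saline by edgeR's quasi-likelihood test at an adjusted p of 0.05 over the 15999 genes tested. Among all genes tested, 0.075% were called higher and 0.0313% lower, so 0 of 45 is close to the background. Most members lay slightly on the low side in MPTP, since 37 of 45 (82.2%) had a log2 fold change below 0, against 49.9% of all genes tested. All members were read in the same 8 libraries, so these 37 are not separate observations, and an offset of a whole library moves many of them together. An unadjusted p under 0.05 was found for 3 members on the low side (6.67%, against 4.5% of all genes tested) and for 0 on the high side (against 4.28%). DESeq2 also called 0 members, and its smallest adjusted p among them was 0.0581, for Ndufa4. It called 0.156% of all genes higher and 0.175% lower. Its unadjusted p was under 0.05 for 3 members on the low side (against 5.08% of all genes) and for 0 on the high side (against 4.72%). The median log2 fold change was -0.09 over the subunits and -0.03 over the assembly factors, beside 0.00 (0.0006) over all genes tested. In bulk RNA of this kind, fewer neurons and less RNA per neuron cannot be told apart. Counts were scaled to a common library size, so the fold changes measure neither of them directly.

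All 45 genes passed the filter on low counts. Of these, 44 had between 483 and 23094 counts in each library, and the standard error of their log2 fold changes lay between 0.07 and 0.15. The exception was Ndufa4l2, with 7 to 120 counts. For the same 44 genes the 95% interval of the log2 fold change stayed within -0.52 to 0.40, that is, between 0.698-fold and 1.32-fold. Intervals that lay wholly within a 1.5-fold change in either direction were found for 44 of 45 members and for 62.7% of all genes tested. The members also varied little within a group. Their median within-group SD of log2 CPM (counts scaled to a common library size) was 0.12. For all genes with a mean of at least 5 CPM it was 0.16. Neither this comparison nor that of the intervals was matched for expression level.

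**Figure D1:**
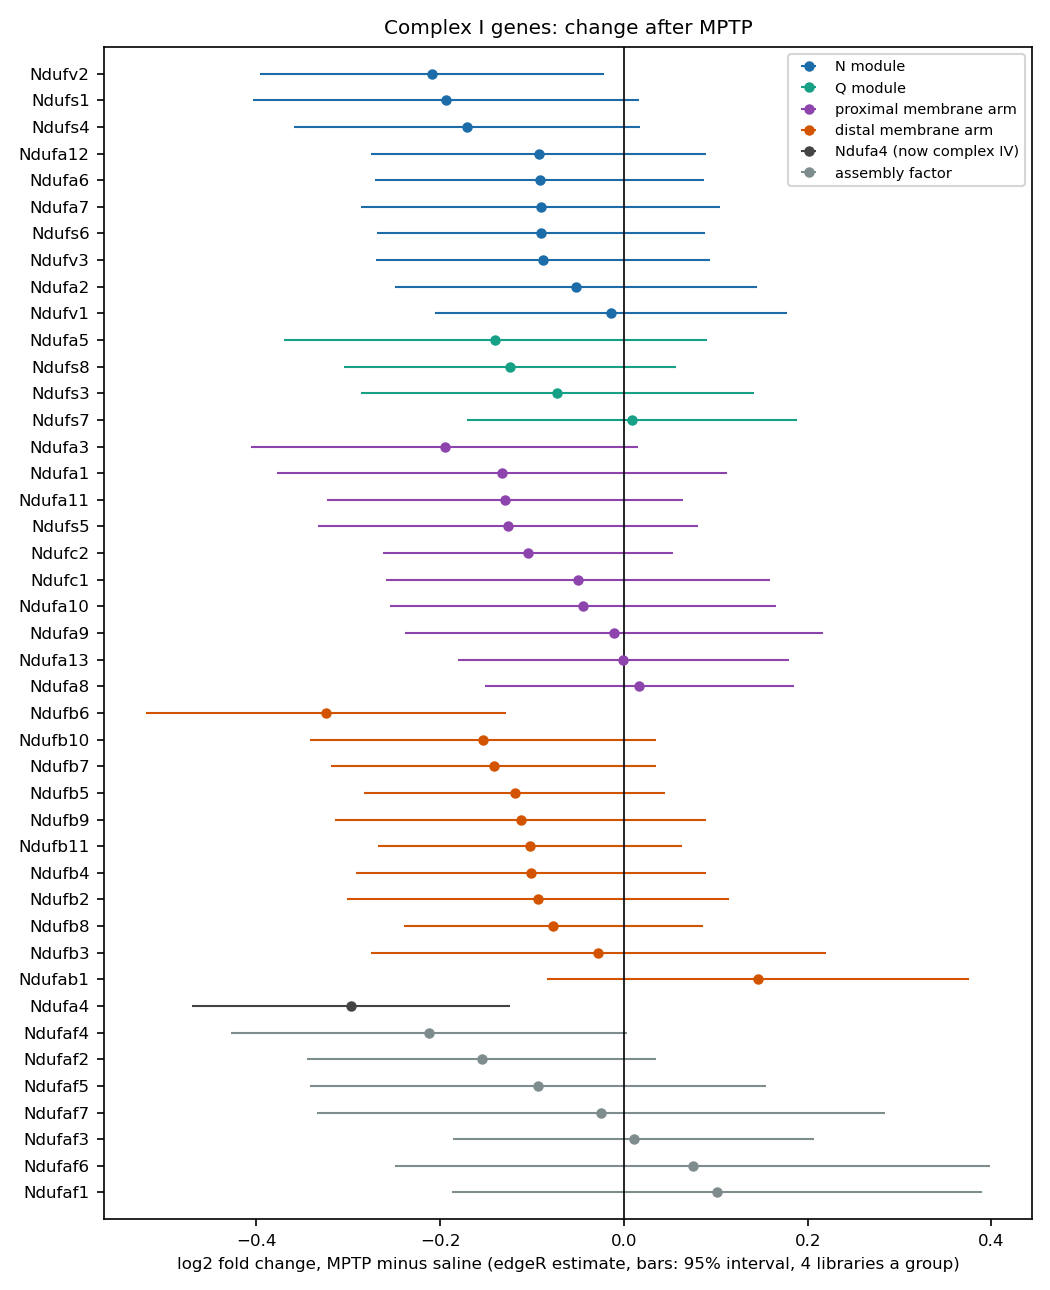
Log2 fold change (MPTP minus saline, x axis) of 43 complex I genes, grouped by the part of the enzyme they belong to, with the 95% interval from the edgeR fit of 4 libraries a group. Most points sit just left of 0, only Ndufa4, Ndufb6 and Ndufv2 have an interval that leaves out 0, and Ndufa4l2 (0.80, interval -0.72 to 2.32) is off this scale and not drawn.

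The promoters of 3 members are shown because Ndufa4 and Ndufb6 had the smallest p of the family and Ndufb4 holds the most matches to the motif of NRF1, a transcription factor known to bind promoters of respiratory chain genes. Each line gives the 250 bases before the RefSeq transcription start, 5′ to 3′ on the gene's strand, on GRCm38.p6. GENCODE vM21 places the starts of Ndufa4 (11907497) and Ndufb4 (37654453) inside the printed stretches. They are Ndufa4 (chr6:11907451-11907700, minus strand), Ndufb6 (chr4:40279422-40279671, minus strand) and Ndufb4 (chr16:37654369-37654618, minus strand), and capitals mark motif matches.
Ndufa4: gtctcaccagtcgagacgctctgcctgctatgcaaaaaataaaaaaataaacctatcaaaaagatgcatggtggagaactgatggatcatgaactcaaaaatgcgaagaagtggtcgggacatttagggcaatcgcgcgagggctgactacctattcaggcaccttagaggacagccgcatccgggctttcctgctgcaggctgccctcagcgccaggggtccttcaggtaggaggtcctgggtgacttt
Ndufb6: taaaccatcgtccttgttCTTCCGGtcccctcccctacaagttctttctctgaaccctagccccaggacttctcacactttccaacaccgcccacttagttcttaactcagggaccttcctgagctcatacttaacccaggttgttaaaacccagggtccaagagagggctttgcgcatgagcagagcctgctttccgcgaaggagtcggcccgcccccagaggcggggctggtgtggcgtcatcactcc
Ndufb4: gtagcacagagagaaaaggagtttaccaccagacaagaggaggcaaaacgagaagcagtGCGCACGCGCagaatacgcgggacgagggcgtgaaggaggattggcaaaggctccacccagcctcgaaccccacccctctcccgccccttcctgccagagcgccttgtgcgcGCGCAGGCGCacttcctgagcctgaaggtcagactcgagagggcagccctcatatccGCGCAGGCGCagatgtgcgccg

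The motifs searched, on both strands, were GCGC followed by any base and TGCGC for NRF1, CCGGAAG for the ETS family to which GABPA belongs, AAGATGGCG for YY1 and TCAAGGTCA for ERR, and overlapping matches were allowed. Windows of 300 bases (250 before the start to 50 after it) were found for 39 of the 45 members, in 41 windows. An NRF1 match lay in 10 of the 41 windows (24.4%), against 4.60% of all 32851 windows and 8.47% of the windows of tested genes. A YY1 match lay in 5 (12.2%), against 1.40% of all windows and 2.43% of those of tested genes. The ETS motif was in 5 windows (12.2%), against 8.86% and 14.6%, and the ERR motif in 0, against 0.423% and 0.290%. The NRF1 matches belong to 9 genes, among them Ndufb4 with 3, Ndufa5, Ndufa8, Ndufa11, Ndufs5, Ndufs6 and the assembly factors Ndufaf4 and Ndufaf5. The window of Ndufa4 held none of the 4 motifs, and that of Ndufb6 held the ETS motif alone. A divergent protein-coding gene starting within 1000 bases upstream was annotated for 12 members (26.7%), against 6.77% of all protein-coding genes in GENCODE vM21. An example is Ndufa7, with the ribosomal protein gene Rps28 10 bases away. The share among tested genes alone was not computed.

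Levels were compared between members as CPM per kilobase of the principal transcript. Ndufa4 had the highest level, at 734 ± 30.0 CPM per kilobase after saline and 598 ± 46.8 after MPTP (SD, n = 4 for each). Ndufb8, a subunit of the distal membrane arm, followed with 373 ± 12.2 in saline and 354 ± 18.7 in MPTP, and Ndufa2, a subunit of the N module, with 332 ± 28.9 and 320 ± 34.2. Among the 37 subunits other than Ndufa4l2 the level, averaged over the 8 libraries, spanned 26.3-fold (59.0-fold with the union of annotated exons as length). Their median was 134, with the quartiles at 86.2 and 213 CPM per kilobase. Ndufa4, described below as now assigned to complex IV, set the top of both spans. By principal transcript it averaged 666, ahead of Ndufb8 at 363, and Ndufab1 was lowest at 25.3.

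The assembly factors sat near the bottom of the same order. Their median was 16.2 CPM per kilobase, 8.29-fold below that of the subunits, and the range ran from 8.43 for Ndufaf6 to 52.9 for Ndufaf5. Ndufa4l2 had the lowest level of the family (0.526) with either length. Ndufaf6, Ndufaf4 and Ndufaf1 (both 11.8) came next, and the order among these did not hold between groups or lengths, as Ndufaf1 was below Ndufaf4 in saline and Ndufab1 (8.17) was below Ndufaf6 with the union of exons. The N module had a median of 96.5 CPM per kilobase, the Q module 129, the distal membrane arm 154 and the proximal membrane arm 207. Neighbours in this order were mostly not separated, as the 4 saline values overlapped in 39 of 44 adjacent pairs, and the order was nearly the same in MPTP (rank correlation 0.998 across the 45 genes, which share the same libraries and lengths). The length assumed moved several ranks: with the union of all annotated exons in place of the principal transcript, Ndufa4 stayed highest, whereas Ndufb2 went from rank 11 to 39, Ndufc1 from 8 to 29, Ndufb8 from 2 to 18 and Ndufa11 from 5 to 15.

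**Figure D2:**
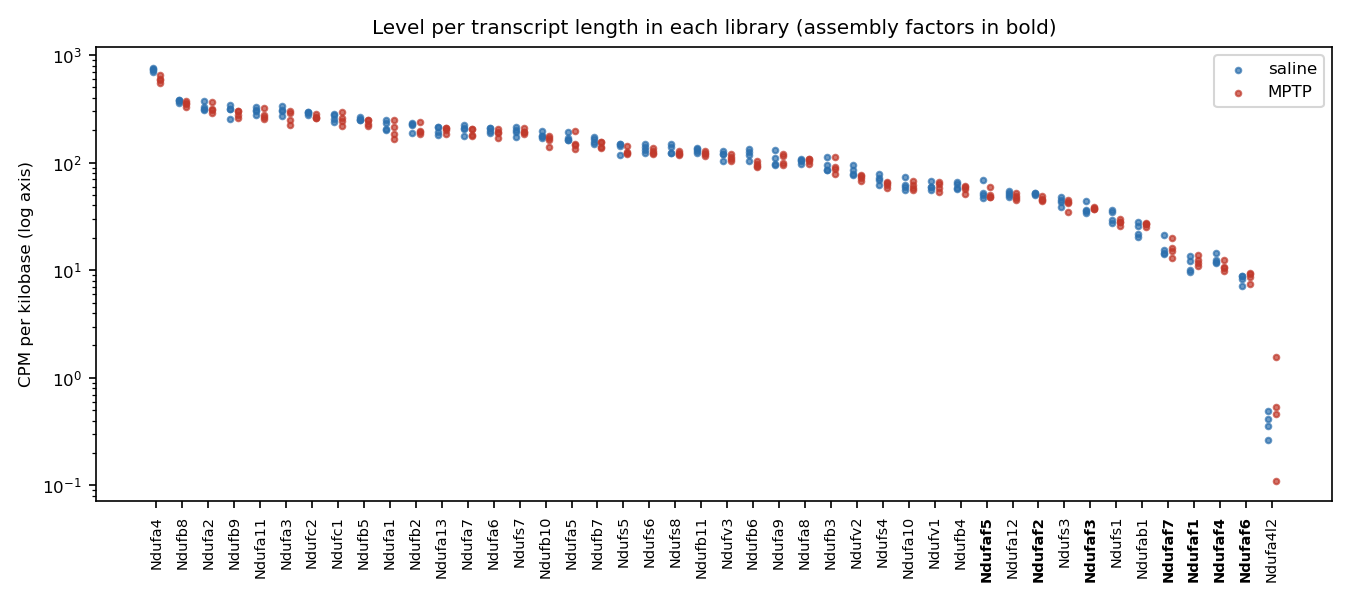
Level of each of 44 genes as CPM per kilobase of principal transcript (log axis), ordered from the highest, with 1 point for each of the 4 saline and 4 MPTP libraries. Ndufa4 stands at the top (734 in saline, 598 in MPTP), the assembly factors in bold gather at the right, and Ndufa4l2 is lowest at 0.526.

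Ndufa4 had the smallest p of the family. Its product was long counted among the complex I subunits and is now assigned to cytochrome c oxidase, complex IV. The gene lies on chromosome 6 (11900292 to 11907497, minus strand, GRCm38), and the exons of its principal transcript overlap no other annotated gene. Ndufa4 was at 247, 297, 273 and 263 CPM in MPTP replicates 1 to 4 and at 337, 345, 313 and 332 CPM in saline replicates 1 to 4. Every MPTP library lay below every saline library, and the lowest saline value was that of saline 3. The log2 fold change of Ndufa4 was -0.30 (SE 0.08, 95% interval -0.47 to -0.12), which did not pass over all genes (adjusted p = 0.365). Its paralog Ndufa4l2, induced by hypoxia in other cells, was at 0.625 ± 0.585 CPM after MPTP and 0.358 ± 0.0898 CPM after saline (SD, n = 4). MPTP 1 alone, with 120 counts against 7 to 38 in the other 7 libraries, set its log2 fold change of 0.80 (SE 0.72, adjusted p = 0.784), which was -0.05 without MPTP 1.

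Ndufb6, an accessory subunit of the distal membrane arm, had the lowest fold change of the family. It was at 61.1, 68.4, 59.7 and 64.0 CPM in MPTP replicates 1 to 4 and at 78.3, 88.1, 68.4 and 82.0 CPM in saline replicates 1 to 4. The groups did not overlap, but MPTP 2 and saline 3, both at 68.4 CPM after rounding, all but met. The log2 fold change of Ndufb6 was -0.32 (SE 0.09, 95% interval -0.52 to -0.13, adjusted p = 0.389). Ndufb6 lies on chromosome 4 (40270591 to 40279421, minus strand), and 39.0% of the bases of its principal transcript are also exonic in Smim27 on the other strand. The library kit does not mark strand, so reads from this stretch cannot be told apart, and Smim27 was not analysed here.

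Without saline 3, Ndufa4 and Ndufb6 passed the threshold. The log2 fold change was then -0.32 for Ndufa4 (adjusted p = 0.0489) and -0.39 for Ndufb6 (adjusted p = 0.0341), while 0.983% of all genes were called lower and 0.853% higher. Leaving that library out also brought 3 of 14 dopaminergic markers to a lower call, and 3 of 12 astrocyte, 5 of 12 oligodendrocyte and 2 of 12 microglia markers to a higher call. Ndufa4 and Ndufb6 were the only members called in any of the 17 alternative settings. The adjusted p over those settings ran from 0.0489 to 0.791 for Ndufa4 and from 0.0341 to 0.791 for Ndufb6, and neither changed sign. When a score of glial and vascular markers was added to the fit of all 8 libraries, the log2 fold changes were -0.28 (adjusted p = 0.578) and -0.24 (adjusted p = 0.716), with 0.075% of all genes called higher and 0.0188% lower.

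In the N module, which binds NADH and its flavin, all 10 genes had a log2 fold change below 0, from -0.21 to -0.01, with a median of -0.09, and none was called. Ndufv2, a core subunit that holds an iron-sulfur cluster, was at 115, 130, 121 and 127 CPM after MPTP and at 163, 144, 130 and 133 CPM in saline. The groups overlapped only where MPTP 2 exceeded saline 3. The log2 fold change of Ndufv2 was -0.21 (SE 0.09, adjusted p = 0.508). Ndufs1, the largest core subunit, had 72.4 ± 4.54 CPM after MPTP and 82.7 ± 11.2 CPM after saline (SD, n = 4), with 94.8 and 89.2 CPM in saline 1 and 2 but 70.7 and 76.3 CPM in saline 3 and 4, so its groups overlapped (log2 fold change -0.19, adjusted p = 0.601). Ndufv1, the core subunit that binds NADH and the flavin, had 99.6 ± 8.76 CPM after MPTP and 101 ± 8.55 CPM in saline (log2 fold change -0.01, 95% interval -0.21 to 0.18). The accessory subunit Ndufs4, whose loss in mice causes an encephalopathy, stood at -0.17 on the same scale (adjusted p = 0.606). The other accessory subunits of the module, Ndufa2, Ndufa6, Ndufa7, Ndufa12, Ndufs6 and Ndufv3, lay between -0.09 and -0.05.

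The Q module, the site of quinone reduction and of the block by MPP+, had 3 of its 5 genes below 0 and a median of -0.07. Ndufs7, which carries the last iron-sulfur cluster before quinone, was at 141, 160, 145 and 147 CPM after MPTP and at 145, 152, 131 and 161 CPM in saline. The groups lay on top of each other, and the means were 148 ± 8.31 CPM after MPTP and 147 ± 12.7 CPM after saline (SD, n = 4, log2 fold change 0.01, 95% interval -0.17 to 0.19). The core subunits Ndufs3 (-0.07) and Ndufs8 (-0.12) and the accessory Ndufa5 (-0.14) had adjusted p values of 0.875, 0.706 and 0.746.

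Accessory subunits of the membrane arm surround the proton pumps. In the proximal arm 9 of 10 genes lay below 0 (median -0.08), led by the small membrane subunit Ndufa3 at 137 ± 18.2 CPM after MPTP and 157 ± 12.7 CPM after saline (SD, n = 4, log2 fold change -0.20, adjusted p = 0.601). Ndufa8, a subunit on the intermembrane side, stood at 0.02, Ndufa13, also known as GRIM-19, at -0.0007 and Ndufa9, at the junction of the arms, at -0.01. In the distal arm 10 of 11 genes lay below 0 (median -0.10). Ndufb5 was at 267, 267, 244 and 238 CPM after MPTP and at 286, 270, 270 and 277 CPM in saline. Its groups did not overlap, though the offset was small (log2 fold change -0.12, adjusted p = 0.689), and 20.0% of its principal transcript overlaps Mrpl47 on the other strand.

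Ndufab1, the mitochondrial acyl carrier protein, was the member of the distal arm above 0. It was at 37.8, 38.3, 38.7 and 35.8 CPM after MPTP and at 29.1, 36.6, 30.5 and 40.0 CPM in saline. The MPTP libraries were close together and the saline libraries spread around them, so the log2 fold change of 0.15 (SE 0.11, adjusted p = 0.730) did not exceed the replicate spread. Ndufab1 also serves fatty acid synthesis in the matrix, and its coding sequence has 2 pseudogene copies with up to 99.8% identity.

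**Figure D3:**
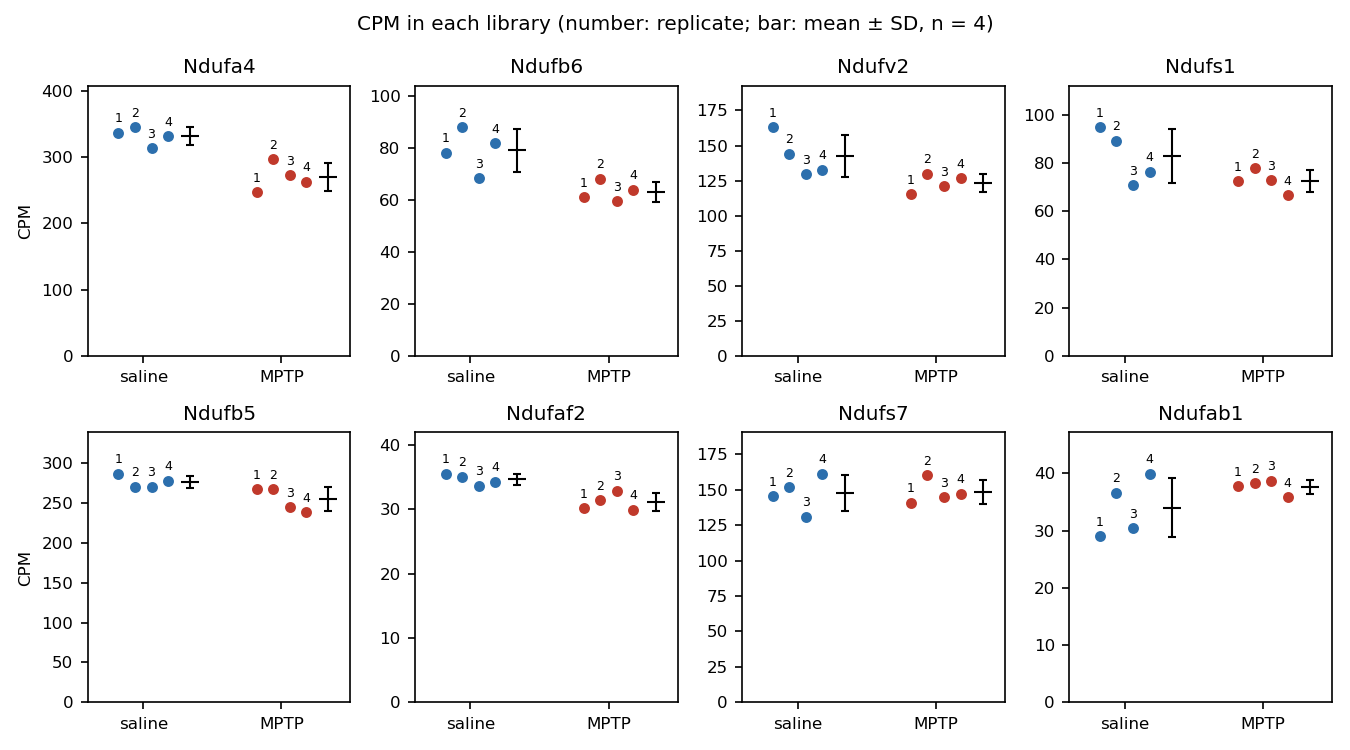
CPM (y axis from 0) of 8 complex I genes in each of the 4 saline and 4 MPTP libraries, numbered by replicate, with the mean and SD of each group. In Ndufa4 (247 to 297 in MPTP, 313 to 345 in saline), Ndufb6, Ndufb5 and Ndufaf2 the groups do not overlap, whereas in Ndufs7 and Ndufab1 they do.

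The 7 assembly factors divided, 4 with a log2 fold change below 0 and 3 above, between -0.21 and 0.10, and none was called. Ndufaf4, which acts with Ndufaf3 on the Q module, had 39.7 ± 4.08 CPM after MPTP and 46.0 ± 4.38 CPM after saline (SD, n = 4, log2 fold change -0.21, adjusted p = 0.578), while Ndufaf3 itself stood at 56.2 ± 1.31 and 55.8 ± 6.45 CPM (0.01, adjusted p = 0.986). Ndufaf2, which takes part in the attachment of the N module, was at 30.2, 31.4, 32.9 and 30.0 CPM after MPTP and at 35.6, 35.1, 33.7 and 34.3 CPM in saline. Every MPTP library was below every saline library, and the log2 fold change was -0.15 (SE 0.09, adjusted p = 0.644). The values for Ndufaf1, a member of the complex that builds the membrane arm, were 17.7 ± 1.83 and 16.5 ± 2.70 CPM (0.10, adjusted p = 0.867), and those for Ndufaf6 were 9.36 ± 0.979 and 8.89 ± 0.863 CPM (0.07, adjusted p = 0.921). Ndufaf5, which hydroxylates Ndufs7, had -0.09 (adjusted p = 0.859), and Ndufaf7, a methyltransferase, had -0.03 (adjusted p = 0.977).

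Groups that did not overlap, all MPTP lower, were seen in 4 of 45 members (8.89%), namely Ndufa4, Ndufb6, Ndufb5 and Ndufaf2, against 2.14% of all genes tested. In the other direction they were seen in 0 members, against 2.04%. Without saline 3 the count was 9 of 45 (20%), against 7.61% of all genes, and 0 in the other direction, against 7.22%. Fewer saline libraries make such a separation easier. Saline 3 was also the lowest saline library in 28 of the 45 members, against 29.4% of all genes tested. The larger count is therefore not a separate result. The added members were Ndufv2, Ndufs4, Ndufa7, Ndufb7 and Ndufc2.

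The 8 libraries held 54192354 to 78892061 counts. Saline 3 had the lowest CPM of the 4 saline libraries in 28 of the 45 members, whereas it was the lowest in 29.4% of all genes tested. Among the MPTP libraries, MPTP 2 was the highest in 23 members, against 26.4% of all genes tested. Of the 45 members, 13 were highest of the MPTP libraries in MPTP 2 and lowest in MPTP 3, among them 11 of the 23 with a principal transcript of at most 875 bases and 2 of the 22 longer ones (Ndufa12 and Ndufaf3). The Q module subunit Ndufa5, one of the 11, had 171 CPM in MPTP 2 and 116 CPM in MPTP 3. The share of all genes with this order, short or long, was not computed, and the part of transcript length in these differences was not tested. Members with a principal transcript of at most 875 bases had a median log2 fold change of -0.11 (21 of 23 below 0), and longer members had -0.06 (16 of 22 below 0).

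The mean log2 CPM of the subunits was 6.59, 6.67, 6.50 and 6.56 in MPTP replicates 1 to 4 and 6.67, 6.72, 6.58 and 6.68 in saline replicates 1 to 4. Saline 3 lay among the MPTP libraries and MPTP 2 among the saline libraries, so the groups overlapped. This mean gives Ndufa4l2, with 120 counts in MPTP 1 and 7 in MPTP 3, the same weight as every other subunit. The summed CPM of the 45 members, where Ndufa4l2 weighs little, was 4747, 5113, 4761 and 4736 in MPTP replicates 1 to 4. In saline replicates 1 to 4 that sum was 5210, 5389, 4903 and 5262, so only MPTP 2 lay above a saline library. The assembly factors averaged 4.88 ± 0.10 in MPTP and 4.92 ± 0.12 after saline (SD, n = 4), and the groups overlapped. The dopaminergic markers, among them Th, Slc6a3, Slc18a2 and Ddc, were all detected in every library, and 14 of 14 were tested. Their score was 8.00 ± 0.11 in MPTP and 8.15 ± 0.30 in saline, with saline 3 at 7.70 and the other saline libraries at 8.27 to 8.34. Of these markers, 11 of 14 had a log2 fold change below 0 with a median of -0.15, and none was called with all 8 libraries (Th -0.23, Slc6a3 -0.23, Slc18a2 -0.15 and Ddc -0.54).

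The non-neuronal score, the mean of the astrocyte, oligodendrocyte, microglia and endothelial marker scores, ran from 2.78 to 3.12 in MPTP and was 2.65, 2.28, 3.22 and 2.34 in saline replicates 1 to 4. All 12 astrocyte markers and 11 of 12 oligodendrocyte markers had a log2 fold change above 0, as did 8 of 12 microglia markers and 5 of 12 endothelial markers, and 0 of the 48 was called. None of the 48 was at 0 in any library. When that score was added to the fit of all 8 libraries, the subunit median was -0.06 and 30 of 38 subunits lay below 0 (against 49% of all genes), and the median of the assembly factors turned to 0.07 with 2 of 7 below 0. Without saline 3 the medians were -0.13 (33 of 38 below 0, against 48.8% of all genes) and -0.08 (5 of 7 below 0). Without saline 3 and with the score in the fit, the subunit median was -0.18 (28 of 38 below 0) and that of the assembly factors 0.0439. The score thus moved the subunit median up with saline 3 and down without it, and the part of glial and vascular RNA in the complex I values cannot be read from these fits.

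**Figure D4:**
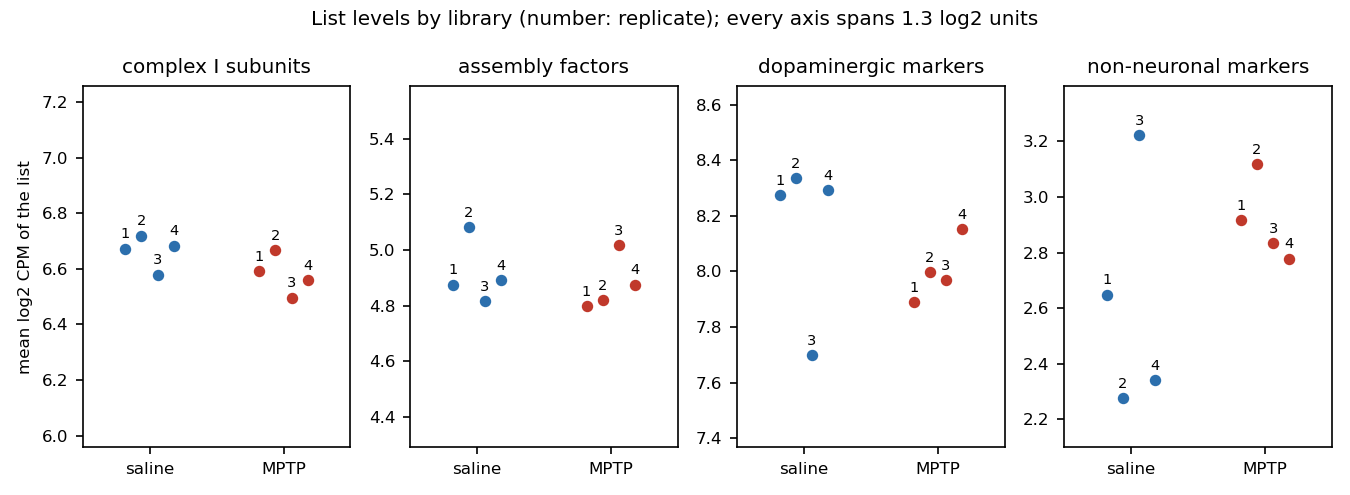
Mean log2 CPM of the complex I subunits, the assembly factors, the dopaminergic markers and the non-neuronal markers in each of the 4 saline and 4 MPTP libraries, numbered by replicate, on axes that all span 1.3 log2 units. The subunit level, which includes Ndufa4l2, moves within 6.50 to 6.72. Saline 3 lies at 7.70 for the dopaminergic and at 3.22 for the non-neuronal markers, apart from the other saline libraries.

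**Figure D5:**
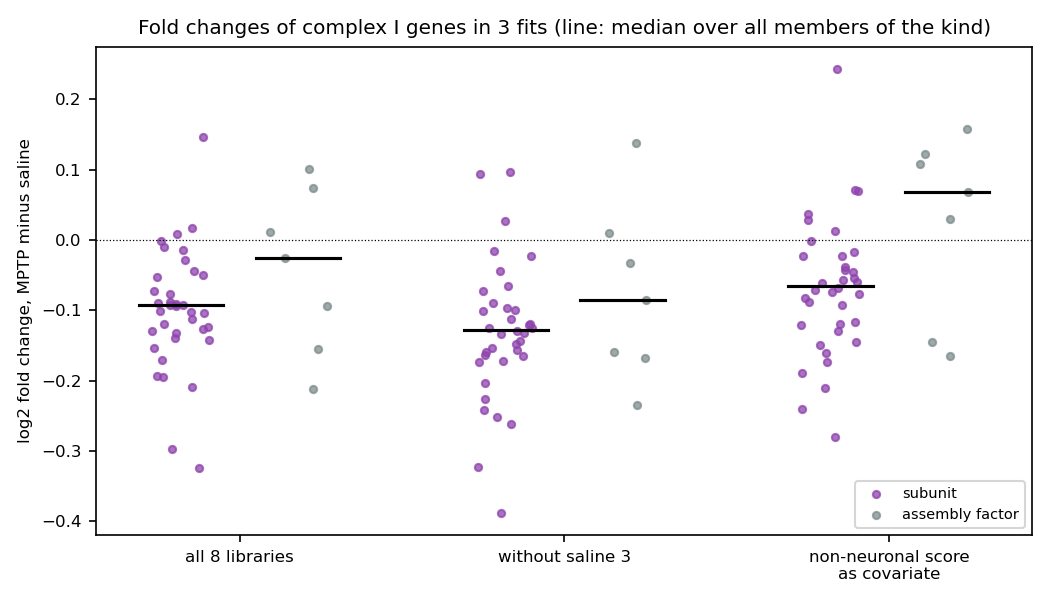
Log2 fold changes (y axis) of 43 complex I subunits and assembly factors in 3 fits: all 8 libraries, without saline 3, and all 8 libraries with the glial and vascular score added, with a line at the median of all members of each kind and Ndufa4l2 left off the scale. The subunit median is -0.09, -0.13 and -0.06, and that of the assembly factors -0.03, -0.08 and 0.07.

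The other genes of the pathway gave the following values, each list read beside the same all-gene background. Of 13 listed complex I assembly factors with other names, 12 were tested, 11 lay below 0, the median was -0.10 and none was called. Acad9, a partner of Ndufaf1, had -0.25 (SE 0.18, adjusted p = 0.708) and Tmem70 had -0.14 (SE 0.11, adjusted p = 0.729). Among 23 nuclear genes of complexes II to IV, 22 lay below 0, the median was -0.12 and none was called, with the complex III subunit gene Uqcrb at -0.35 (SE 0.11, adjusted p = 0.415) and the complex IV subunit gene Cox6c at -0.22 (SE 0.09, adjusted p = 0.492). Whether complex I differed from complexes II to IV was not tested. Of 10 regulators of nuclear respiratory genes, 4 lay above 0 and 6 below, with a median of -0.04 (0.0135 without saline 3) and none called. Nrf1 had 0.12 (SE 0.15, adjusted p = 0.862) and the coactivator gene Pprc1 -0.10 (SE 0.11, adjusted p = 0.842). The 7 mitochondrially encoded subunits were not found in the counts under their mt-Nd names, so they were not analysed here.

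Several members share sequence with other genes. At 95% identity or more over at least 100 coding bases, 8 members had a copy elsewhere in GENCODE vM21: Ndufa12, Ndufab1, Ndufb3, Ndufb4, Ndufb11, Ndufs3, Ndufs5 and Ndufs6. The sources used here do not say how reads that fit more than 1 place were counted, and the counts of these 8 are uncertain. Exons of the principal transcript overlapped no other annotated gene in 28 members. Overlap with a gene on the other strand was found in 15 members and on the same strand in 3, with Ndufb2 in both. The overlapping share was highest in Ndufb2 (50.3%) and was 19.7% in Ndufb8, which followed Ndufa4 in level. Reads from these stretches cannot be told apart, so the counts of these members are uncertain too.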

How the data were processed

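The authors deposited raw counts per gene for 21761 genes in 8 libraries, made with TopHat2 2.0.8 and the mm10 build, per the submitters' processing notes. The counting tool and its annotation were not stated. Libraries were not strand-marked and carried no molecular identifiers. Totals ran from 54192354 to 78892061 counts. Genes were filtered with filterByExpr (15999 tested), scaled by TMM and tested with edgeR 4.0.16 (R 4.3.3) by the quasi-likelihood F-test on all 8 libraries, with Benjamini-Hochberg adjustment over all genes tested and a threshold of 0.05. DESeq2 1.42.0, limma 3.58.1 (voom), other scalings and filters, a replicate block, a marker covariate and leaving out each library were alternatives. The fit was tested on simulated data. CPM used the TMM-scaled totals. Positions and lengths came from GENCODE vM21, promoters from RefSeq GRCm38.p6. The members and lists were chosen with earlier results of these data known. Named genes were the core subunits, the 6 smallest p in each direction, the 3 highest and 3 lowest per length, the 4 assembly factors with the smallest p, Ndufa4, Ndufa4l2, Ndufab1, those called without saline 3, and the 2 smallest p of each pathway list. Other members named with values were chosen after their values were seen. The values of 1 member, counted in all totals and medians, are not reported here.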

Additional observations from a re-analysis of the deposited data

Results flagged for a closer look

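In 50 groups of 4 libraries, the highest or lowest value was set against the other 3, a comparison that chance singles out in about 1 of 20 groups, and 2 stood apart. The summed CPM of the 45 complex I genes was 5113 in MPTP 2, above the 4736 to 4761 of the other MPTP libraries. In the saline libraries the sum ran from 4903 (saline 3) to 5389 (saline 2), a range that holds MPTP 2. The dopaminergic marker score was 7.70 in saline 3, below the 8.27 to 8.34 of the other saline libraries.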

How the results depend on the processing

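Across all genes, 17 were called in the fit of all 8 libraries, 11 with a mean of at least 5 CPM, 53 by DESeq2, 26 without saline 3 and with the marker score as a covariate, and 8 to 297 when each library was left out in turn, the 297 without saline 3. Members called lower numbered 0 to 2 when each library was left out, the 2 without saline 3, and 0 in the other settings. None was called higher in any of the 17 settings. The subunit median of -0.09 became -0.18 without saline 3 and with the covariate, and lay between -0.13 and -0.07 when each library was left out. The median of the assembly factors lay between -0.15 (without MPTP 3) and 0.0378 (without saline 2) when each library was left out, was 0.07 with the covariate and 0.0439 without saline 3 and with the covariate. Over all 45 members, 50 of 764 values under an alternative had the opposite sign, in 16 genes. For the 20 members named by rule these were 18 of 339 values, in 7 genes, and the cause was not tested. For these, when each library was left out, the log2 fold changes ran from -0.13 to 0.0116 for Ndufa2, -0.0508 to 1.15 for Ndufa4l2, -0.0112 to 0.0486 for Ndufa8, -0.17 to 0.0378 for Ndufaf5, -0.0433 to 0.0578 for Ndufs7 and -0.0593 to 0.0468 for Ndufv1. With the covariate Ndufaf5 was at 0.0304 and Ndufv1 at 0.0289. Without saline 3 and with the covariate Ndufaf5 was at 0.13, Ndufs7 at -0.0648, Ndufs8 at 0.0255 and Ndufv1 at 0.22, and with voom Ndufs7 was at -0.03. Same-numbered libraries did not deviate together (correlations from -0.116 to 0.039, none highest with its own number). With the replicate block 14 genes and 0 members were called, and the subunit median was -0.09. Counting error and the spread of 4 libraries a group limit what smaller differences could be seen.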
